A study of Homo sapiens with 12 samples.

Results

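Protocadherins are cadherin-type adhesion proteins that bind their own kind across cell contacts. Of the 63086 genes in the table of gene counts, 65 were taken as protocadherins. They were chosen by symbol alone, as the human PCDHA, PCDHB and PCDHG genes and the PCDH genes named by a number only. Of the 65, 54 were clustered (16 α, 16 β and 22 γ genes) and 11 were non-clustered (PCDH1, PCDH7, PCDH8, PCDH9, PCDH10, PCDH12, PCDH15, PCDH17, PCDH18, PCDH19 and PCDH20). Bulk RNA sequencing had been done on 4 lines of MIA PaCa-2, a human pancreatic carcinoma cell line, with 3 libraries per line: unmodified cells (WT), a line that went through editing but kept only a silent point mutation (CRISPR Control), and 2 knockout clones of TIMP1 (TIMP1 KO 1 and TIMP1 KO 2) made with guides against different regions of exon 4. TIMP1 encodes tissue inhibitor of metalloproteinases 1, a secreted protein. No line received any treatment beyond culture in RPMI 1640 with serum, and the study asked which genes depend on TIMP1 and not on the editing procedure. Each knockout is 1 clone, so what loss of TIMP1 does and what sets a clone apart cannot be told apart within 1 line. The p-values measure the spread between replicate libraries, which may be technical in part. That spread was pooled per gene over the 3 libraries of all 4 lines, including lines outside a comparison.

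The clustered genes lie in tandem on the long arm of chromosome 5. Each α and γ gene begins with its own variable exon and promoter and is spliced to constant exons shared by its whole cluster, whereas β genes have no constant exon. Variable exons encode the extracellular adhesive repeats and the membrane anchor, and the constant exons encode a common cytoplasmic tail. In neurons each cell uses a different few of these promoters, chosen with the help of CTCF, cohesin and DNA methylation, and the resulting mix of proteins lets a neuron tell its own branches from those of others. Non-clustered protocadherins sit singly on several chromosomes and act in cell sorting and migration, and PCDH10 and PCDH17 are known as genes that carcinomas often silence by promoter methylation.

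In GRCh38 coordinates the α genes spanned chr5:140786136-141012347, the β genes chr5:141051374-141249365 and the γ genes chr5:141330514-141512977, all on the plus strand. In the GENCODE 44 annotation, 3 exonic segments with 2869 bases in all belonged to 10 or more α genes, and 3 segments with 2177 bases belonged to 10 or more γ genes. No such segment existed in the β cluster. Some genes that contain all of these shared segments still had almost no reads. PCDHA5 had 0 to 3.03 and PCDHGB5 0 to 1.75 normalized reads in the 12 libraries. Reads in constant exons were thus not credited to every gene of a cluster. Whether they were credited to single genes was not tested. The α and γ values below are taken to rest mainly on variable exons. Variable exons of neighboring genes resemble each other, and how reads matching several paralogs were shared out was not tested.

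Because every variable exon has its own promoter, the sequences just before the transcription starts show what the members of a cluster have in common. RefSeq windows from 250 bases before to 50 after each start (GRCh38.p14) matched 56 of the 65 members, 47 of them clustered. Short words shared within each cluster were found by counting words in these windows, so they describe the windows and test nothing. On either strand, TGTCGCT stood in a window of 10 of 13 α genes, against 1.76% of all 35116 RefSeq windows. GGTGGCGCT stood in a window of 13 of 14 β genes, against 0.501%. The γ word was CGCTGT, for 17 of 20 γ genes against 11.2%. Members were counted by gene, and some have several windows, whereas shares over all windows were counted by window. All of these words contain CGCT, which stood in a window of 46 of 47 clustered genes but also in 70.0% of all windows. CGCTGT can overlap TGTCGCT. Stretches around the word are printed below for members whose counts carry the comparisons, all from the plus strand and upstream of the annotated start, with the cluster's word in capitals.
PCDHA4 (chr5:140806962-140807018): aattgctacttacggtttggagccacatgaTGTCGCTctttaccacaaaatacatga
PCDHA10 (chr5:140855824-140855880): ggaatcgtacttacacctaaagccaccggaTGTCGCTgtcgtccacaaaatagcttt
PCDHA12 (chr5:140875227-140875283): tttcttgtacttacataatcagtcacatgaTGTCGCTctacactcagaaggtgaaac
PCDHB2 (chr5:141094525-141094583): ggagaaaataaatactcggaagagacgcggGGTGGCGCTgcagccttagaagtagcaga
PCDHB9 (chr5:141187055-141187113): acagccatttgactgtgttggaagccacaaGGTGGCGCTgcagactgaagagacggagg
PCDHB16 (chr5:141182291-141182349): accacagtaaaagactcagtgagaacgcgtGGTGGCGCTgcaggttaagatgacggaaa
PCDHGB2 (chr5:141359907-141359962): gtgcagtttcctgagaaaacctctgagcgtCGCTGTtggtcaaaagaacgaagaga
PCDHGC3 (chr5:141475866-141475921): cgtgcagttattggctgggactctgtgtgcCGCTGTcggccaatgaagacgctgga
In the windows that could be printed, the word began 41 to 84 bases before the start in 9 α genes (median 51.0), 16 to 84 bases in 12 β genes (median 66.5) and 39 to 199 bases in 16 γ genes (median 60.0). The window of PCDHGB7, the second most abundant γ gene here, held CGCT but no CGCTGT.

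Values are the authors' normalized read counts (reads divided by a size factor per library), and each library held 26908701 to 36093563 reads in genes. TIMP1 itself, the targeted gene, was at 3553 ± 274 normalized reads in WT, 2690.4 ± 357 in CRISPR Control, 1599.6 ± 32.8 in TIMP1 KO 1 and 1161 ± 28.8 in TIMP1 KO 2 (mean ± SD, n = 3), so both knockout clones kept transcripts at a lower level. Of the carcinoma markers, KRT8, KRT18, KRT19, VIM and EPCAM were abundant in every line and CDKN2A, which this line is known to lack, was at 0 throughout. MSLN, also on that list, had a mean of at least 10 normalized reads, and its level per line is not described here. KRT8 was at 129995 in WT but 39963 in CRISPR Control, and CDH1 at 1189 in WT but 128 and 84.9 in the knockout clones. Summed leukocyte markers stayed at 6.18 to 26.4 and summed endothelial markers at 2.65 to 32.3 normalized reads in every library. CRISPR Control thus differed from WT in much more than its mutation: 53.4% of the 15987 genes tested were called between them.

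The 65 members ranged from no reads to a mean of 3398 normalized reads in 1 line (PCDH7 in CRISPR Control). Genes entered the test with a mean of at least 10 normalized reads over the 12 libraries, which 28 members did (6 α, 11 β, 5 γ and 6 non-clustered), so counts of calls cover these and not all members. Among the other 37 members the highest mean was 9.0 (PCDHGA5), 10 members had at most 3 reads in every library, and PCDHA1 and the pseudogene PCDHA14 had none. PCDHA14 has no exonic base of its own, and 99.9% of the exonic bases of PCDHA1 are shared with other genes if strand is not used. In each cluster a few genes held most of the signal. Whether counting used strand was not given in the sources used here, so levels of different genes are compared per kilobase of exonic bases not shared with another gene on the same strand. On that scale PCDHGC3 was the highest clustered gene in WT, at 582 normalized reads per kilobase, followed by PCDHGB7 at 118 and PCDHA12 at 72.6. Among non-clustered genes PCDH1 led in WT at 79.6 per kilobase and PCDH7 led in CRISPR Control at 263.

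**Figure D1:**
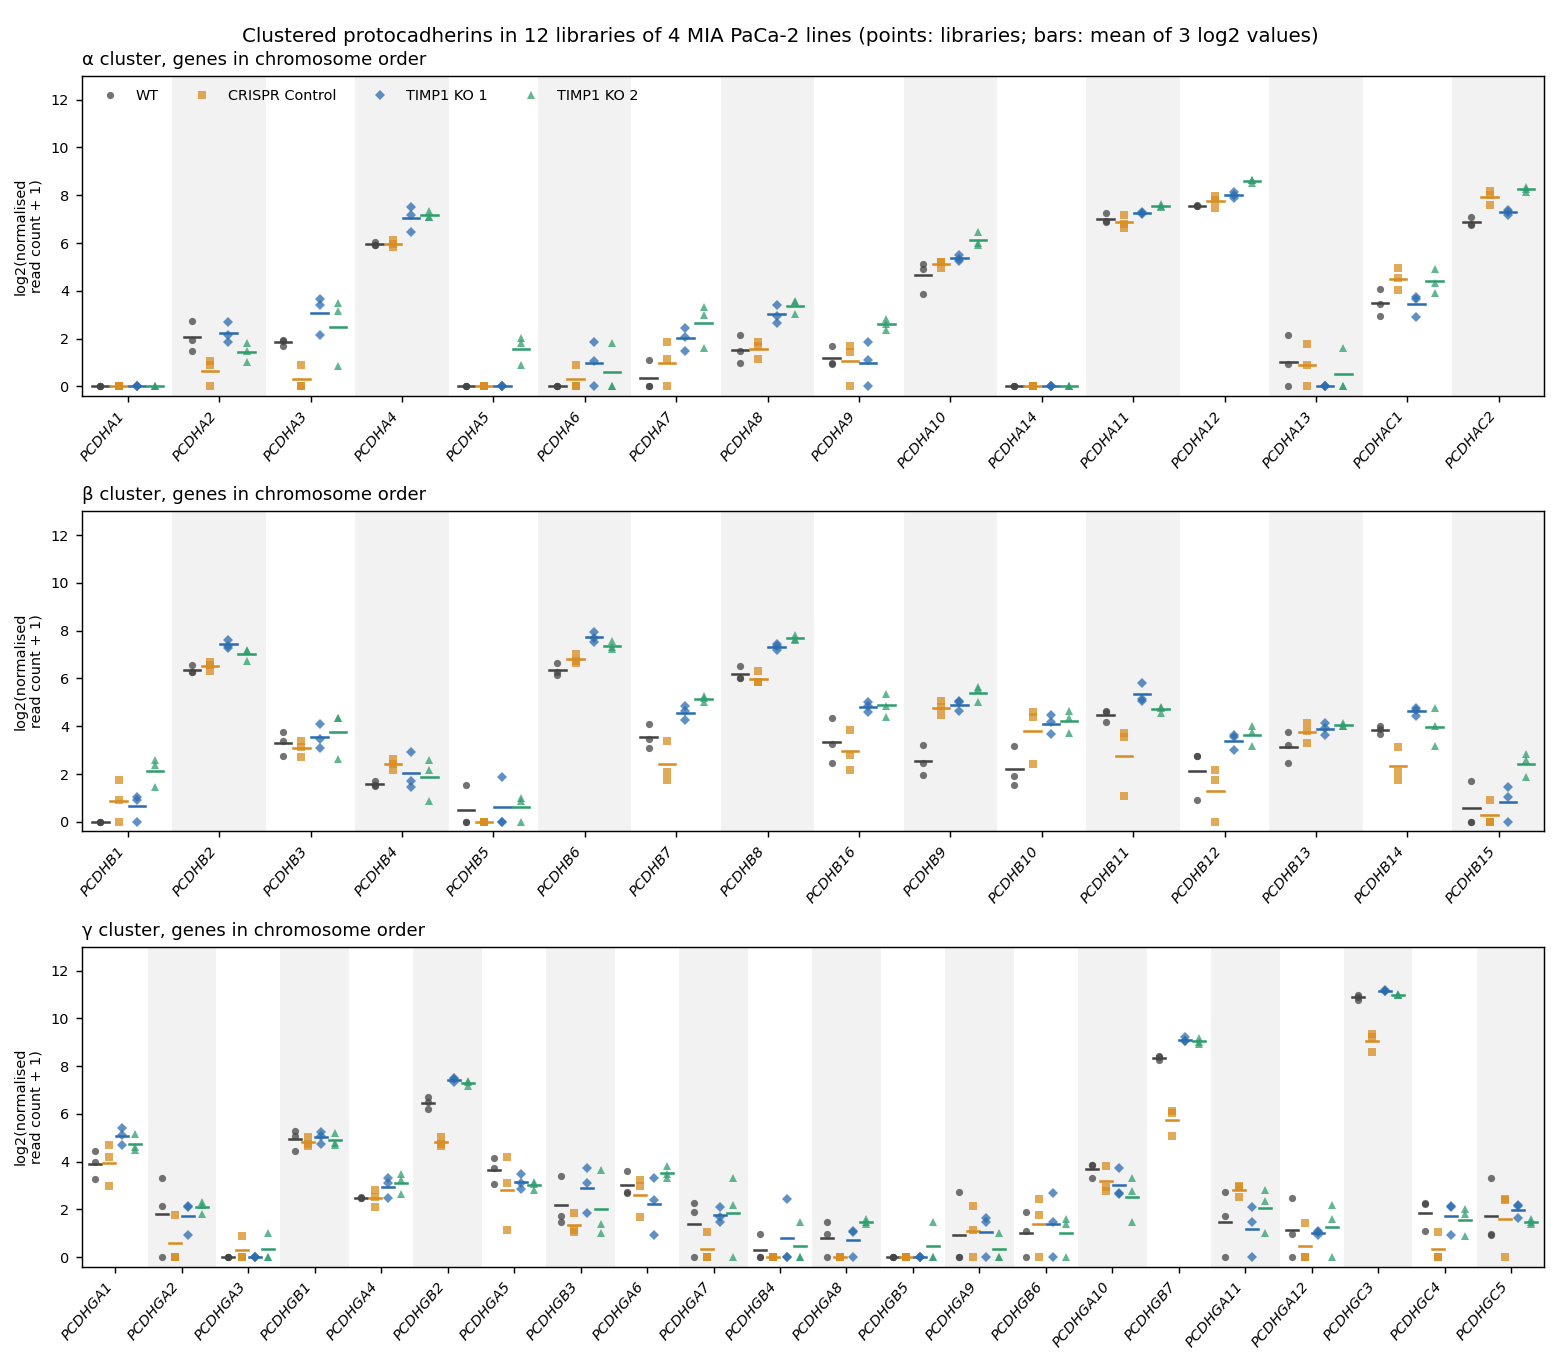
Level of the 54 clustered protocadherins, as log2(normalized read count + 1) on the vertical axis, for genes in chromosome order within each cluster; every point is a library, every bar the mean of 3 log2 values, and color and shape give the line. PCDHGB2, PCDHGB7 and PCDHGC3 sit lowest in CRISPR Control, and PCDHB2, PCDHB6 and PCDHB8 sit higher in both knockout clones than in WT.

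The question for the knockout clones was which protocadherins differed from WT. In both clones the called clustered genes were higher, with no exception. The minimum mean was taken over all 12 libraries, so a gene low in 1 line could enter through lines where it was high. PCDHB9 and PCDHB10 averaged 5.19 and 4.19 in WT and 15.9 to 42.3 in the edited lines. Their place in the test, and so in the count of higher genes, rests on the edited lines. Against WT, 12 of 22 tested clustered genes were called in TIMP1 KO 1 and 14 of 22 in TIMP1 KO 2, all of them higher. Over all 15987 genes tested, 35.5% were called in TIMP1 KO 1 (18.0% higher) and 55.0% in TIMP1 KO 2 (27.1% higher). The median log2 change of the 22 genes was 0.83 in TIMP1 KO 1 and 0.91 in TIMP1 KO 2, beside 0.0032 and -0.0084 over all genes. The comparisons share the 3 WT libraries, so the same direction in both clones is not 2 independent observations. In bulk RNA, fewer expressing cells and less RNA per cell cannot be told apart.

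Among the α genes, 3 of 6 tested were called in TIMP1 KO 1 (PCDHA4, PCDHA12 and PCDHAC2) and 5 of 6 in TIMP1 KO 2, where PCDHA10 and PCDHA11 joined them. PCDHA12, the most abundant α gene, had 187, 187 and 189.5 normalized reads in WT, 252, 178 and 222 in CRISPR Control, 278, 259.9 and 237 in TIMP1 KO 1, and 360.3, 392 and 399 in TIMP1 KO 2. Every knockout library was above every WT library, and TIMP1 KO 2 was above all others. Relative to WT it rose on the log2 scale by 0.45 ± 0.13 (SE) in TIMP1 KO 1 and by 1.02 ± 0.13 in TIMP1 KO 2, with adjusted p of 0.0089 and 1.6e-06.

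PCDHA4 had 60.0, 60.0 and 65.7 in WT, 61.3, 55.7 and 68.1 in CRISPR Control, 180.4, 86.6 and 141 in TIMP1 KO 1, and 134, 162 and 136 in TIMP1 KO 2. WT and CRISPR Control overlapped fully (log2 change -0.01 ± 0.21), and both knockout clones lay above them without overlap. The change against WT was 1.06 ± 0.21 (adjusted p = 0.00061) in TIMP1 KO 1 and 1.20 ± 0.21 (8.7e-05) in TIMP1 KO 2.

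PCDHAC2 is one of the C-type isoforms, whose promoters stand at the ends of the clusters nearest the constant exons and are used by most neurons alike. It had 136, 106 and 109 in WT, 287, 195 and 259 in CRISPR Control, 166, 144 and 155 in TIMP1 KO 1, and 284, 329 and 302 in TIMP1 KO 2. All edited lines thus lay above WT, with called log2 changes of 1.06 ± 0.15 in CRISPR Control, 0.41 ± 0.15 in TIMP1 KO 1 and 1.38 ± 0.15 in TIMP1 KO 2. The call in TIMP1 KO 1 (adjusted p = 0.039) was lost without any 1 of WT replicates 2 and 3 and TIMP1 KO 1 replicates 1 and 3 (0.084 to 0.13), and with no minimum mean (0.064). PCDHAC1, the other C-type α gene, had 15.8, 10.0 and 6.67 in WT and 22.5, 15.4 and 29.7 in CRISPR Control, with 6.48, 12.4 and 11.5 in TIMP1 KO 1 and 14.1, 19.3 and 29.3 in TIMP1 KO 2. Only CRISPR Control was called against WT for this gene (1.02 ± 0.40, adjusted p = 0.038). PCDHAC2 made up 21.5% ± 2.12 of the α reads in WT and 34.8% ± 1.74 in CRISPR Control, whereas PCDHA12 made up 30.7% to 34.6% in every line.

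PCDHA11 had 119, 151 and 117 in WT, 111, 97.3 and 145 in CRISPR Control, 153, 158 and 148 in TIMP1 KO 1, and 196, 184 and 184 in TIMP1 KO 2. PCDHA10 had 34.0, 13.6 and 29.5 in WT, 35.4, 35.6 and 29.7 in CRISPR Control, 36.7, 39.4 and 44.2 in TIMP1 KO 1, and 87.0, 58.7 and 63.6 in TIMP1 KO 2. For both genes TIMP1 KO 2 lay above every library of WT and CRISPR Control, with called changes against WT of 0.55 ± 0.15 and 1.48 ± 0.28, while the change in TIMP1 KO 1 was not called (0.25 ± 0.15 and 0.71 ± 0.28). PCDHA10 was called there without WT replicate 1 (0.96, adjusted p = 0.023). Of the 10 untested α genes, PCDHA8 had 0.953 to 3.40 in WT and 1.19 to 2.59 in CRISPR Control against 5.30 to 9.72 and 7.06 to 10.8 in the knockout clones, and PCDHA5 had reads in TIMP1 KO 2 alone (0.877 to 3.03). These are a few reads per library, given with no test.

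β genes are single-exon genes with no shared tail. Against WT, 6 of 11 tested were called in TIMP1 KO 1 and 7 of 11 in TIMP1 KO 2, and the point estimate was above 0 for all 11 in both clones. PCDHB6 had 101, 69.1 and 77.2 in WT, 105, 99.6 and 129.7 in CRISPR Control, 244, 186 and 207 in TIMP1 KO 1, and 187, 148 and 160.4 in TIMP1 KO 2. PCDHB8 had 64.5, 64.5 and 91.4 in WT, 77.7, 56.9 and 56.0 in CRISPR Control, 146, 163 and 171 in TIMP1 KO 1, and 192, 222 and 203 in TIMP1 KO 2. PCDHB2 had 93.9, 75.5 and 77.2 in WT, 93.3, 78.3 and 103 in CRISPR Control, 194, 165 and 155 in TIMP1 KO 1, and 106, 147 and 142 in TIMP1 KO 2. Every knockout library of these 3 genes lay above every library of WT and CRISPR Control. The log2 changes in TIMP1 KO 1 and TIMP1 KO 2 were 1.36 ± 0.17 and 1.01 ± 0.17 for PCDHB6, 1.13 ± 0.17 and 1.49 ± 0.17 for PCDHB8, and 1.06 ± 0.17 and 0.67 ± 0.17 for PCDHB2, with a largest adjusted p of 0.0027. In the annotation 43.9% of the exonic bases of PCDHB2 overlap a gene on the opposite strand, so part of its reads cannot be assigned to it if strand was not used.

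PCDHB9 had 4.53, 8.18 and 2.86 in WT, 32.0, 27.3 and 20.9 in CRISPR Control, 23.8, 32.6 and 30.9 in TIMP1 KO 1, and 31.5, 49.1 and 46.4 in TIMP1 KO 2. PCDHB10 followed it at 7.92, 2.73 and 1.91 in WT, 4.32, 20.2 and 23.1 in CRISPR Control, 11.9, 16.9 and 21.2 in TIMP1 KO 1, and 19.1, 12.3 and 24.2 in TIMP1 KO 2. Both genes were called higher than WT in all 3 edited lines, although 1 library of CRISPR Control lay within the WT range for PCDHB10. PCDHB9 showed the largest called clustered change against WT in both clones, 2.36 ± 0.34 in TIMP1 KO 1 and 2.87 ± 0.34 in TIMP1 KO 2, next to 2.23 ± 0.34 in CRISPR Control. For PCDHB10 the ratio of TIMP1 KO 2 to WT was 4.62 by 61 reads against 12 (95% counting interval 2.46 to 9.42). Its call in CRISPR Control (1.60 ± 0.54, adjusted p = 0.018) was lost without any 1 of WT replicates 2 and 3 and CRISPR Control replicates 2 and 3 (0.056 to 0.095), and its call in TIMP1 KO 1 without WT replicate 3 (0.051).

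PCDHB16 had 4.53, 19.1 and 8.57 in WT, 6.05, 3.56 and 13.2 in CRISPR Control, 31.3, 28.1 and 23.0 in TIMP1 KO 1, and 19.9, 28.1 and 40.4 in TIMP1 KO 2. PCDHB11 had 17.0, 23.6 and 22.9 in WT, 12.1, 10.7 and 1.10 in CRISPR Control, 34.6, 32.6 and 55.7 in TIMP1 KO 1, and 26.5, 22.8 and 27.2 in TIMP1 KO 2. PCDHB7 had 15.8, 10.0 and 7.62 in WT, 9.50, 2.37 and 3.30 in CRISPR Control, 18.4, 23.6 and 27.4 in TIMP1 KO 1, and 31.5, 37.7 and 35.3 in TIMP1 KO 2. These low genes were ordered alike, with CRISPR Control lowest and the knockout clones highest on average. PCDHB14 had 13.6, 11.8 and 15.2 in WT, 7.77, 2.37 and 3.30 in CRISPR Control, 20.5, 24.8 and 26.5 in TIMP1 KO 1, and 26.5, 14.9 and 8.07 in TIMP1 KO 2, and every library of CRISPR Control lay below every library of the other lines. PCDHB16 was called in both clones against WT (1.47 ± 0.47, adjusted p = 0.019, and 1.52 ± 0.47, 0.010), PCDHB7 only in TIMP1 KO 2 (1.61 ± 0.41, 0.0025), and PCDHB11 and PCDHB14 in neither. PCDHB11 was called higher in TIMP1 KO 1 by edgeR (adjusted p = 0.038) and DESeq2 (0.033), with a pseudocount of 10 (0.032) and without CRISPR Control replicate 3 (0.018). PCDHB3 and PCDHB13 stayed between 4.53 and 19.2 in every library, with no call against WT. The call of PCDHB7 as lower in CRISPR Control (-1.13 ± 0.41, adjusted p = 0.026) was lost with edgeR (0.089) and DESeq2 (0.098), which both called it higher in TIMP1 KO 1. The same call in CRISPR Control was lost with a pseudocount of 10 (0.058) and with no minimum mean (0.083). Without WT replicate 1 (0.12) or CRISPR Control replicate 2 (0.12) or 3 (0.076) it was lost as well.

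The γ cluster carried most clustered reads in WT and both knockout clones, and its 3 most abundant genes were low in CRISPR Control. PCDHGC3, a C-type γ isoform, had 2000.0, 1765 and 1917 in WT, 651, 385 and 593 in CRISPR Control, 2303, 2268 and 2246 in TIMP1 KO 1, and 1993, 2059.6 and 1999.7 in TIMP1 KO 2. CRISPR Control lay far below all other lines, and TIMP1 KO 2 overlapped WT. The log2 change against WT was -1.83 ± 0.13 (adjusted p = 8.9e-10) in CRISPR Control, 0.26 ± 0.13 (0.12) in TIMP1 KO 1 and 0.09 ± 0.13 (0.56) in TIMP1 KO 2. Without CRISPR Control replicate 2, TIMP1 KO 1 was called against WT as well (0.26, adjusted p = 0.0052). The spread used for that comparison was pooled over all lines, CRISPR Control included. PCDHGC3 made up 71.7% to 78.3% of the γ reads in every line, so its share was much steadier than its level.

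PCDHGB7 had 338, 337 and 308 in WT, 64.8, 33.2 and 69.2 in CRISPR Control, 526, 533 and 597 in TIMP1 KO 1, and 513, 579 and 487 in TIMP1 KO 2. PCDHGB2 had 72.4, 104 and 88.6 in WT, 25.9, 32.0 and 24.2 in CRISPR Control, 176, 179 and 162 in TIMP1 KO 1, and 163, 161 and 143 in TIMP1 KO 2. No 2 of the groups CRISPR Control, WT and the knockout clones overlapped for either gene. Against WT, PCDHGB7 fell by 2.60 on the log2 scale in CRISPR Control and rose by 0.75 ± 0.19 and 0.68 ± 0.19 in the clones; PCDHGB2 fell by 1.65 and rose by 0.97 ± 0.17 and 0.83 ± 0.17. PCDHGB1 had 32.8, 38.2 and 21.0 in WT, 32.0, 26.1 and 24.2 in CRISPR Control, 36.7, 32.6 and 25.6 in TIMP1 KO 1, and 24.9, 35.9 and 26.2 in TIMP1 KO 2, with no comparison called. PCDHGA1 had 14.7, 20.9 and 8.57 in WT, 6.91, 24.9 and 17.6 in CRISPR Control, 33.5, 24.8 and 41.5 in TIMP1 KO 1, and 34.8, 23.7 and 21.2 in TIMP1 KO 2, and was called against WT only in TIMP1 KO 1 (1.17 ± 0.41, adjusted p = 0.032), a call lost without any 1 of WT replicates 1 and 3 and TIMP1 KO 1 replicates 1 and 3 (0.062 to 0.15). It was called in TIMP1 KO 2 without WT replicate 2 (0.042) or CRISPR Control replicate 1 (0.038). γ genes thus differed among themselves: the 3 most abundant ones moved with CRISPR Control and the next 2 did not.

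**Figure D2:**
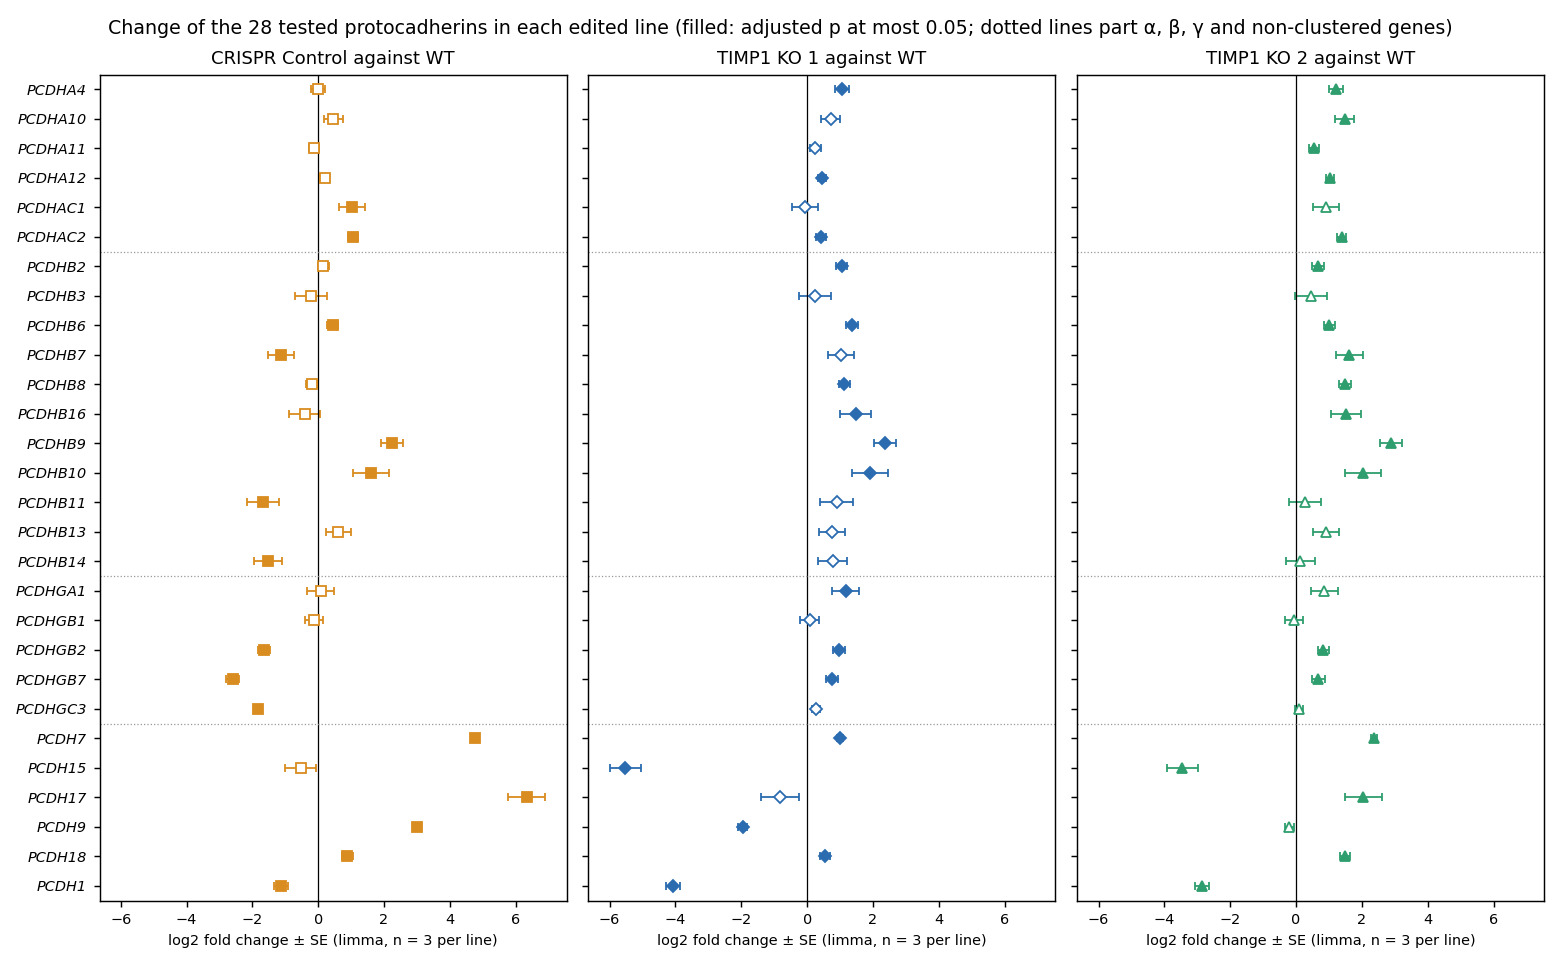
Log2 fold change against WT (horizontal axis, ± SE from limma, n = 3 per line) of the 28 tested protocadherins in CRISPR Control, TIMP1 KO 1 and TIMP1 KO 2; filled symbols have an adjusted p of at most 0.05, and dotted lines part the α, β, γ and non-clustered genes. Filled symbols of clustered genes lie right of 0 in both knockout clones and on both sides in CRISPR Control, and PCDH7, PCDH9 and PCDH17 reach 4.77, 3.00 and 6.33 in CRISPR Control.

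CRISPR Control against WT shows how far an edited line with intact TIMP1 protein sequence can differ. Of the 22 tested clustered genes, 11 were called, 5 higher (PCDHAC1, PCDHAC2, PCDHB6, PCDHB9 and PCDHB10) and 6 lower (PCDHB7, PCDHB11, PCDHB14, PCDHGB2, PCDHGB7 and PCDHGC3), beside 53.4% of all genes called and 27.2% called higher. Without replicate 3 of CRISPR Control, 7 were called, 2 higher and 5 lower. The call of PCDHB6 (0.44 ± 0.17, adjusted p = 0.036), which keeps it out of the intersection given below, was lost with edgeR (0.051), with no minimum mean (0.059), and without WT replicate 2 (0.16), WT replicate 3 (0.10) or CRISPR Control replicate 3 (0.15). All called γ genes were lower and both called α genes higher, and the β genes split evenly. Against CRISPR Control in place of WT, 15 of 22 clustered genes were called in TIMP1 KO 1, 13 higher (PCDHA11 not without CRISPR Control replicate 1 or 2 or any 1 TIMP1 KO 1 library, adjusted p 0.056 to 0.16) and PCDHAC1 and PCDHAC2 lower, with 63.0% of all genes called and 31.7% called higher. The PCDHGA1 call there was lost without CRISPR Control replicate 1 (adjusted p = 0.17) or TIMP1 KO 1 replicate 1 (0.059) or 3 (0.098). With no minimum mean, PCDHA11 (0.055) and PCDHGA1 (0.067) both lost this call. In TIMP1 KO 2, 14 of 22 were called, all higher, with 67.7% of all genes called and 33.3% called higher. The γ genes that were low in CRISPR Control stood well above it in the clones: PCDHGB7 was 3.35 ± 0.19 and 3.28 ± 0.19 higher on the log2 scale in TIMP1 KO 1 and TIMP1 KO 2 than in CRISPR Control, PCDHGB2 2.62 ± 0.17 and 2.47 ± 0.17, and PCDHGC3 2.10 ± 0.13 and 1.93 ± 0.13. The β genes PCDHB7 (2.16 ± 0.41 and 2.74 ± 0.41) and PCDHB11 (2.57 ± 0.50 and 1.95 ± 0.50) also lay above CRISPR Control, on far fewer reads.

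Summed over each cluster, α reads averaged 544 ± 23.1 in WT, 707 ± 109 in CRISPR Control, 777 ± 66.9 in TIMP1 KO 1 and 1144 ± 35.5 in TIMP1 KO 2 (SD, n = 3). Summed β reads were 329 ± 18.4, 362 ± 26.4, 746 ± 33.3 and 724 ± 23.8 in the same order, so both knockout clones were at 2.27 and 2.20 times WT while CRISPR Control was at 1.10 times. Summed γ reads were 2418 ± 98.5 in WT, 715 ± 162 in CRISPR Control, 3116 ± 16.2 in TIMP1 KO 1 and 2813 ± 96.8 in TIMP1 KO 2. The 3 clusters therefore did not follow each other across the lines: CRISPR Control was at 1.30 times WT for α and at 0.296 times WT for γ. These sums were not tested, since the members were chosen with earlier results of these data known. A few abundant genes also carry much of each sum.

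**Figure D3:**
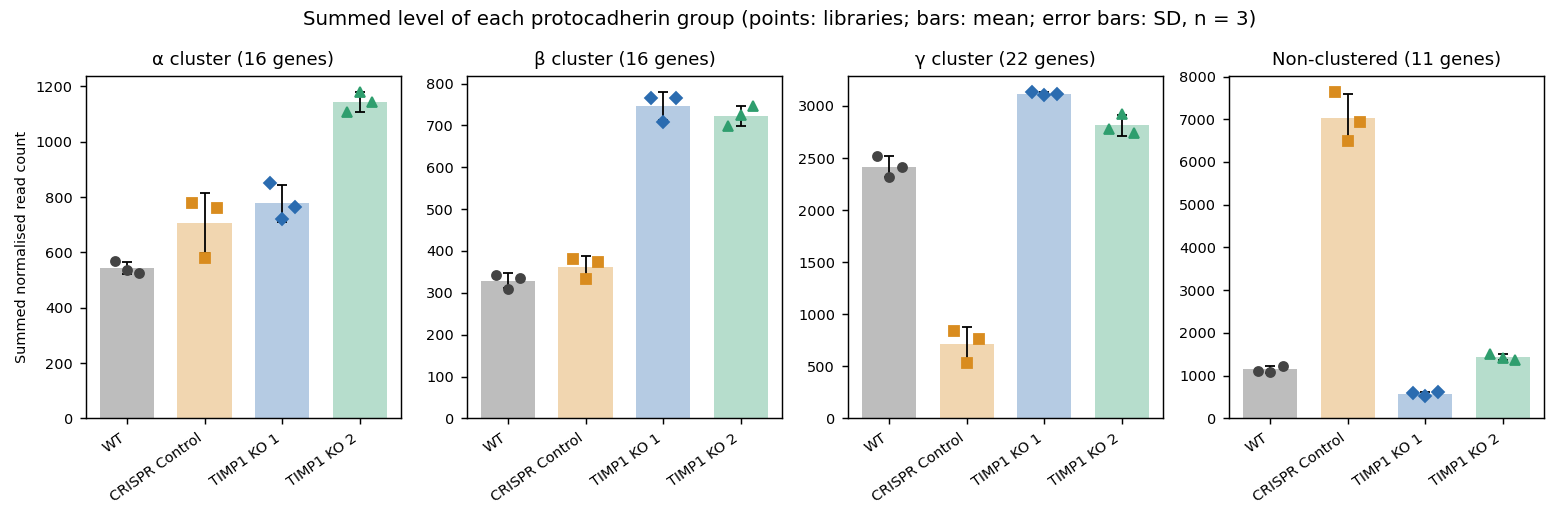
Summed normalized read count (vertical axes from 0, a separate scale per panel) of the 16 α, 16 β, 22 γ and 11 non-clustered protocadherins in each line; points are libraries, bars means and error bars SD (n = 3). β sums are high in both knockout clones, the γ sum is low in CRISPR Control (534 to 844 against 2323 or more elsewhere), and the non-clustered sum is high there (6485 to 7635 against 1503 or less).

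Between the knockout clones, 3 of 22 tested clustered genes were called, all α and all higher in TIMP1 KO 2: PCDHA10 by 0.77 ± 0.28 (adjusted p = 0.040), PCDHA12 by 0.57 ± 0.13 (0.0014) and PCDHAC2 by 0.97 ± 0.15 (4.3e-05). Over all genes, 38.2% were called and 18.1% called higher. None of the 11 β or 5 γ genes tested was called by limma, and 2 of these 16, PCDHB2 and PCDHB6, had an unadjusted p under 0.05. edgeR and DESeq2 each called 3 clustered genes between the clones as well. The call of PCDHA10 was lost without any 1 of 5 libraries of the clones, with adjusted p from 0.059 to 0.16. With the clones pooled as TIMP1-deficient lines against WT and CRISPR Control as TIMP1-competent lines, 18 of 22 clustered genes were called and all 18 were higher, where 65.9% of all genes were called and 32.9% called higher. Among these 18, PCDHB11 (1.42 ± 0.35), PCDHB14 (1.22 ± 0.31) and PCDHGC3 (1.10 ± 0.09) were called against WT in neither clone. For them the competent side includes CRISPR Control, where they were called lower than in WT. The 4 without a call were PCDHAC1 (-0.09 ± 0.28), PCDHB3 (0.47 ± 0.34), PCDHB13 (0.53 ± 0.27) and PCDHGB1 (0.07 ± 0.19).

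To find genes tied to both knockout clones and not to editing, the study intersected comparisons made with DESeq2 and stated no condition on direction. A similar rule here, from the limma fit, kept genes called in both clones against WT in 1 direction and not called in CRISPR Control. By that rule 5 of 22 tested clustered genes remained, PCDHA4, PCDHA12, PCDHB2, PCDHB8 and PCDHB16, all higher in the clones, beside 10.2% of all genes kept and 5.0% kept as higher. PCDHA4, PCDHB2, PCDHB8 and PCDHB16 were also called higher in both clones against CRISPR Control, although the call of PCDHB2 in TIMP1 KO 2 was lost without CRISPR Control replicate 2 (adjusted p = 0.057) or TIMP1 KO 2 replicate 2 (0.063). PCDHA12 was not in TIMP1 KO 1 (0.26 ± 0.13, adjusted p = 0.083), where the ranges of the 2 lines met at 237 to 278 and 178 to 252. Without CRISPR Control replicate 2, PCDHA12 was called in CRISPR Control against WT (0.33, adjusted p = 0.029) and would leave the intersection. PCDHB16 rests on few reads. Its call in TIMP1 KO 1 was lost without WT replicate 1 (adjusted p = 0.12), WT replicate 3 (0.054), or TIMP1 KO 1 replicate 1 (0.067) or 2 (0.054), and its call in TIMP1 KO 2 without WT replicate 1 (0.068) or TIMP1 KO 2 replicate 3 (0.053). Without WT replicate 2, the intersection kept 8 clustered genes.

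Non-clustered protocadherins moved in both directions against WT, all called ones were lower in TIMP1 KO 1 than in CRISPR Control, and all were higher in TIMP1 KO 2 than in TIMP1 KO 1. Against WT, 5 of 6 tested genes were called in each edited line. They were 2 higher and 3 lower in TIMP1 KO 1, 3 higher and 2 lower in TIMP1 KO 2, and 4 higher and 1 lower in CRISPR Control. In the same order, 35.5%, 55.0% and 53.4% of all genes were called. Against CRISPR Control, 5 of 6 were called in TIMP1 KO 1, all lower, and 6 of 6 in TIMP1 KO 2, of which 5 were lower, beside 63.0% and 67.7% of all genes called. Their summed level was 1145 ± 76.5 in WT, 7021 ± 578 in CRISPR Control, 576 ± 43.7 in TIMP1 KO 1 and 1428 ± 67.4 in TIMP1 KO 2.

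**Figure D4:**
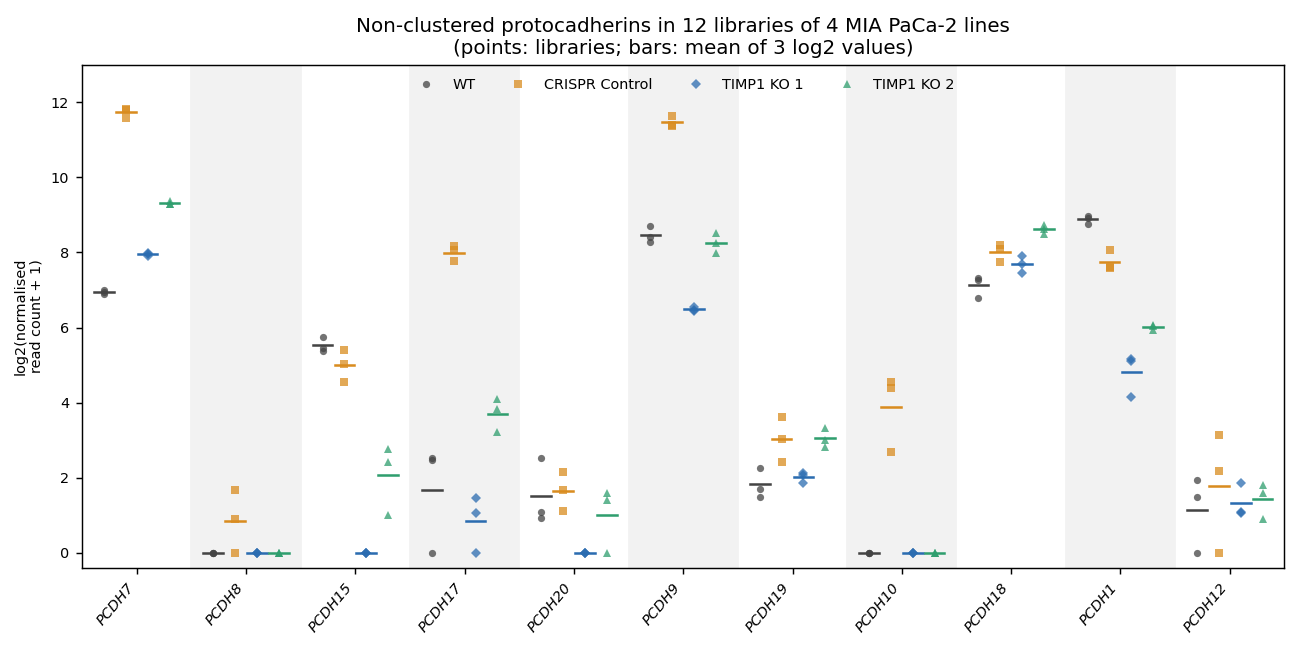
Level of the 11 non-clustered protocadherins as log2(normalized read count + 1) on the vertical axis, with a point for every library, a bar at the mean of 3 log2 values, and color and shape for the line. PCDH7, PCDH9, PCDH10 and PCDH17 are highest in CRISPR Control, and PCDH1 and PCDH15 are lowest in TIMP1 KO 1.

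PCDH7 (chr4:30720369-31146805), an adhesion receptor of epithelial and neural cells, had 119, 128 and 123 normalized reads in WT, 3619, 3058 and 3519 in CRISPR Control, 254, 239.7 and 246 in TIMP1 KO 1, and 628, 621 and 664 in TIMP1 KO 2. No 2 lines overlapped. Its log2 change against WT was 4.77 ± 0.09 (adjusted p = 3.5e-18) in CRISPR Control, 0.99 ± 0.09 (8.4e-08) in TIMP1 KO 1 and 2.36 ± 0.09 (2.1e-13) in TIMP1 KO 2. An opposite-strand gene overlaps 12.4% of its exonic bases.

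PCDH9 (chr13:66302834-67230445) and PCDH17 (chr13:57631744-57729311) lie on the same chromosome. PCDH9 had 337, 309 and 414 in WT, 3158, 2640.2 and 2680.2 in CRISPR Control, 86.4, 93.4 and 88.3 in TIMP1 KO 1, and 364, 303 and 254 in TIMP1 KO 2. PCDH17 had 0, 4.55 and 4.76 in WT, 286, 266 and 218 in CRISPR Control, 1.08, 0 and 1.77 in TIMP1 KO 1, and 8.28, 13.2 and 16.1 in TIMP1 KO 2. Both were highest in CRISPR Control without overlap, and both were lower in TIMP1 KO 1 than in TIMP1 KO 2. PCDH9 rose by 3.00 ± 0.13 in CRISPR Control and fell by 1.96 in TIMP1 KO 1 (SE 0.13), with no call in TIMP1 KO 2 (-0.21 ± 0.13, adjusted p = 0.19) except without TIMP1 KO 2 replicate 1 (-0.34, 0.045). For PCDH17 the ratio of CRISPR Control to WT was 78.5 by 753 reads against 10 (95% counting interval 42.4 to 164). PCDH17 in TIMP1 KO 1 was not called against WT, but was without WT replicate 1, the library with 0 reads (-1.66, adjusted p = 0.0089).

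PCDH18 (chr4:137518918-137532494) had 109.8, 159 and 154 in WT, 293, 274 and 215 in CRISPR Control, 206, 173 and 238 in TIMP1 KO 1, and 424, 395 and 361 in TIMP1 KO 2. All edited lines lay above WT, with called log2 changes of 0.89 ± 0.16, 0.55 ± 0.16 and 1.49 ± 0.16. The call in TIMP1 KO 1 was lost without WT replicate 1 (0.38, adjusted p = 0.083) or TIMP1 KO 1 replicate 3 (0.44, 0.069). PCDH18 was the only tested non-clustered gene called higher in the deficient than in the competent lines (0.58 ± 0.11). The other 5 were called lower, so 6 of 6 were called, beside 65.9% of all genes. Of those 5, PCDH1 and PCDH15 were called lower than WT in both clones and PCDH9 in TIMP1 KO 1 alone. PCDH7 was called higher than WT in both clones and PCDH17 in TIMP1 KO 2, with CRISPR Control far above both clones for these genes.

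PCDH1 (chr5:141853090-141879246), a protocadherin of epithelial cell contacts that lies beyond the γ cluster on the same chromosome, had 504, 430.0 and 481 in WT, 194, 191 and 266 in CRISPR Control, 34.6, 16.9 and 33.6 in TIMP1 KO 1, and 59.6, 66.6 and 64.6 in TIMP1 KO 2. It was lower in every edited line, and no 2 lines overlapped. The log2 change against WT was -1.13 ± 0.22 in CRISPR Control, -4.07 ± 0.22 in TIMP1 KO 1 and -2.87 ± 0.22 in TIMP1 KO 2, and both clones were also called lower than CRISPR Control (-2.94 ± 0.22 and -1.74 ± 0.22).

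PCDH15 (chr10:53802771-55627942), known for the tip links of inner ear hair cells, had 40.7, 52.7 and 42.9 in WT, 41.5, 22.5 and 31.9 in CRISPR Control, 0 in all 3 libraries of TIMP1 KO 1, and 5.80, 4.38 and 1.01 in TIMP1 KO 2. WT and CRISPR Control overlapped, and both clones lay below them. With a limit of 3 reads per library for a count of 0, TIMP1 KO 1 was at least 14.7-fold lower than WT and at least 10.3-fold lower than CRISPR Control. In TIMP1 KO 2 the gene was 11.8-fold lower than WT by 13 reads against 139 (95% counting interval 6.66 to 22.7). PCDH15 was the only tested non-clustered gene that the intersection kept.

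PCDH10 was left untested by its low mean. It had 19.9, 22.5 and 5.49 normalized reads in CRISPR Control and 0 reads in all 9 libraries of the other lines, at least 5.33-fold below on the limit of 3 reads per library in WT. PCDH19 had 4.40 to 11.2 in CRISPR Control and 6.05 to 9.11 in TIMP1 KO 2 against 1.82 to 3.81 in WT and 2.65 to 3.38 in TIMP1 KO 1. PCDH8, PCDH12 and PCDH20 stayed at 7.77 or less in every library. Between the clones all 6 tested non-clustered genes were called and all were higher in TIMP1 KO 2, beside 38.2% of all genes called and 18.1% called higher, with log2 differences from 0.94 ± 0.16 for PCDH18 to 2.87 ± 0.57 for PCDH17.

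Neuron markers were followed because protocadherins are best known in neurons. Their summed level was 1803 to 1967 in WT, 3065 to 3718 in CRISPR Control, 1640 to 1788 in TIMP1 KO 1 and 986 to 1185 in TIMP1 KO 2. In CRISPR Control against WT, 3 of 5 tested markers were called higher and 1 lower, beside 53.4% of all genes called and 27.2% called higher. MAP2 made up most of that sum, ELAVL4 was at 0 in every line, and STMN2 averaged 6.87 in CRISPR Control and 0.938 in WT. The fibroblast marker sum was 302 to 357 in TIMP1 KO 2 and 30.5 to 70.8 in the other lines, almost all of it PDGFRA and PDGFRB, while DCN averaged 0 in TIMP1 KO 2. The part of these shifts in the protocadherin values was not tested.

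Factors known to act on clustered promoter choice were given as a list of 18 genes (CTCF, cohesin and its loaders and releasers, SMCHD1, DNA methyltransferases and their partners). Against WT, 7 of 18 were called lower and none higher in TIMP1 KO 1, and 12 lower and none higher in TIMP1 KO 2, with medians of -0.08 and -0.42 on the log2 scale beside 0.0032 and -0.0084 over all genes. Over all 15987 genes 2799 were called lower in TIMP1 KO 1 and 4461 in TIMP1 KO 2, of 35.5% and 55.0% called in either direction, and the counts of this list and of the lists that follow are to be read beside those shares and beside 53.4% in CRISPR Control. In CRISPR Control 5 were higher and 5 lower, with a median of 0.02. DNMT1, the maintenance DNA methyltransferase, changed by -0.47 ± 0.07 in CRISPR Control, -0.41 ± 0.07 in TIMP1 KO 1 and -0.99 ± 0.07 in TIMP1 KO 2, and its partner UHRF1 by -0.47 ± 0.07, -0.47 ± 0.07 and -1.13 ± 0.07. CTCF changed by 0.18 ± 0.06 in CRISPR Control, -0.25 ± 0.06 in TIMP1 KO 1 and -0.42 ± 0.06 in TIMP1 KO 2, and SMC1A, a cohesin subunit, by -0.42 ± 0.07 and -0.93 ± 0.07 in the clones, with no call in CRISPR Control (-0.02 ± 0.07). Lower transcripts of these factors and higher clustered protocadherins thus stood side by side in the clones, and their relation was not tested.

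ADAM10 and the γ-secretase subunits, which cut protocadherins at the membrane, had 4 of 7 genes called higher in TIMP1 KO 1 and none lower, and 3 higher and 1 lower in TIMP1 KO 2. APH1B rose by 0.91 ± 0.09 and 0.52 ± 0.09 in the clones, and NCSTN rose by 0.41 ± 0.09 and 0.26 ± 0.09 there but changed by -0.84 ± 0.09 in CRISPR Control. Cytoplasmic partners, the WAVE complex and the kinases PTK2, PTK2B and FYN, had 8 of 12 tested genes called higher and none lower in CRISPR Control, where FYN changed by 3.07 ± 0.15. In TIMP1 KO 1 5 were higher and none lower, and in TIMP1 KO 2 5 were higher and 5 lower.

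Genes next to or between the clusters served to show whether the whole region moved. Of 15 tested neighbors, 3 were called higher and 2 lower in TIMP1 KO 1 (median 0.11), 6 higher and 3 lower in TIMP1 KO 2 (median 0.10), and 7 higher and 1 lower in CRISPR Control (median 0.06). TAF7, an intronless gene between the β and γ clusters, rose by 0.26 ± 0.07 in CRISPR Control and 0.38 ± 0.07 in TIMP1 KO 2 and was not called in TIMP1 KO 1 (0.14 ± 0.07). Neighbor medians were thus below the clustered medians of 0.83 and 0.91 in the clones, a difference that was not tested.

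Other cadherins were read beside the protocadherins. Of 12 tested classical cadherins and catenins, 9 were called higher and 2 lower in CRISPR Control, against 2 higher and 6 lower in TIMP1 KO 1 and 3 higher and 7 lower in TIMP1 KO 2. CDH1, epithelial cadherin, changed by -3.23 ± 0.15 and -3.81 ± 0.15 in the clones, and CDH3, placental cadherin, by -5.71 ± 0.25 and -3.65 ± 0.25. CDH18 and CDH10, neural type II cadherins, changed by 4.60 ± 0.53 and 3.84 ± 0.31 in CRISPR Control. Of 7 tested giant cadherins, 1 was called higher and 4 lower in CRISPR Control (median -0.74), 1 lower in TIMP1 KO 1 and 3 lower in TIMP1 KO 2. FAT3, the 1 that rose in CRISPR Control, changed by 3.23 ± 0.45 in CRISPR Control and by -2.96 ± 0.45 and -2.86 ± 0.45 in the clones.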

How the data were processed

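RNA of 12 MIA PaCa-2 libraries (4 lines, 3 each) was sequenced as paired ends. Per the labels and the study's methods, the authors trimmed reads with cutadapt, aligned them to GRCh38 with STAR and counted them per gene with featureCounts. The deposited values are a normalized signal, the read count of a gene divided by a DESeq2 size factor per library. The annotation release, strand setting and treatment of reads shared by genes were not given in the sources used here. Read counts were recovered from the steps between values, and 100% of values came out whole within 0.01 reads. The blank row held no gene, and 4 columns of line means were not used.

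Genes with a mean of at least 10 normalized reads (15987 genes, 99.9% of reads) were compared as log2(value + 1) with limma 3.58.1 in R 4.3.3, in 1 fit over all 12 libraries with a mean-variance trend and Benjamini-Hochberg adjustment over all genes tested. A gene was called at an adjusted p of at most 0.05. Fold changes on this scale understate changes of genes with few reads. The procedure was tested on simulated data. Alternatives were pseudocounts of 0.5 and 10, no minimum mean, a minimum of 50, equal library totals, TMM scaling, edgeR 4.0.16 and DESeq2 1.42.0 on the recovered reads, the replicate number as a block, a minimum absolute log2 change of 1, and leaving out each library. A count of 0 was given a limit of 3 reads, and counting intervals are exact at 95% and cover counting error only.

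Values in every library are given for the 5 tested members with the highest mean in each cluster and among non-clustered genes, and for the 3 highest and 3 lowest called changes in each of the 6 pairs of lines, and other members that a result turned on were added after their values were seen. Members and gene lists were chosen with earlier results of these data known, and the promoter words after seeing the sequences. Exon overlaps were computed on GENCODE 44, whose gene IDs matched 99.1% of the table, and promoter windows were taken from RefSeq GRCh38.p14. The Y-linked protocadherin was left out. The X-linked PCDH11X was left out too, since its symbol ends in a letter. It was at 0 in WT and TIMP1 KO 1, 0.864 to 4.40 in CRISPR Control and 0 to 9.11 in TIMP1 KO 2.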

Additional observations from a re-analysis of the deposited data

Results flagged for a closer look

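The change against WT differed between TIMP1 KO 1 and TIMP1 KO 2 for 9 of the 28 tested protocadherins, by the limma contrast of the clones (adjusted p of at most 0.05), beside 38.2% of all genes in the same contrast, which is a larger share than 9 of 28. All 9 were higher in TIMP1 KO 2. Among the non-clustered genes the difference was 2.87 on the log2 scale for PCDH17, 2.07 for PCDH15, 1.75 for PCDH9, 1.37 for PCDH7, 1.20 for PCDH1 and 0.94 for PCDH18. Among the α genes it was 0.97 for PCDHAC2, 0.77 for PCDHA10 and 0.57 for PCDHA12. PCDH1 and PCDH15 were called lower than WT in both clones, and PCDH7, PCDH18, PCDHA12 and PCDHAC2 higher in both. For these genes the clones differed in size and not in direction. The call of PCDH18 in TIMP1 KO 1 was lost without WT replicate 1 or TIMP1 KO 1 replicate 3, and that of PCDHAC2 in several runs given above. With a pseudocount of 10, PCDH15 no longer differed between the clones by the test (0.44, adjusted p = 0.11). Groups of 3 libraries were too small to be examined for single outlying libraries.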

How the results depend on the processing

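No named log2 fold change called in the main fit reversed under any alternative run, and none gained a call in the opposite direction. Direction was not compared for changes that stayed uncalled. Leaving out single libraries aside, 1556 values kept their side of the threshold, 48 lost and 13 gained a call. With a library left out, 1957 kept theirs, 42 lost and 17 gained a call. With no minimum mean, called clustered genes went from 11 to 7 for CRISPR Control against WT and from 14 to 22 for TIMP1 KO 2 against CRISPR Control. With a minimum of 50, which tests fewer genes, they went from 14 to 9 (TIMP1 KO 2 against WT), 11 to 5 (CRISPR Control against WT), 15 to 9 and 14 to 9 (TIMP1 KO 1 and TIMP1 KO 2 against CRISPR Control) and 18 to 10 (deficient against competent lines), and the 1 non-clustered gene of the intersection became 0, since PCDH15 was no longer tested. With equal library totals, 5 and not 3 clustered genes were called between the clones, and the median of all genes moved by up to 0.11 on the log2 scale (TIMP1 KO 2 against CRISPR Control). With a minimum absolute log2 change of 1, 0 of these 3 remained called, the 18 became 11, and the non-clustered genes called in TIMP1 KO 1 against WT went from 5 to 3. The cause was not tested where none is named.

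Leaving out single libraries gave 7 to 11 clustered calls for CRISPR Control against WT, 8 to 14 for TIMP1 KO 1 and 13 to 15 for TIMP1 KO 2 against WT, 12 to 15 and 14 to 15 for the clones against CRISPR Control, 2 to 3 between the clones, 18 to 19 for deficient against competent lines and 4 to 8 for the intersection. For non-clustered genes the ranges were 5 to 5, 4 to 5, 5 to 6, 5 to 6, 6 to 6, 6 to 6, 6 to 6 and 1 to 1 in the same order. Same-numbered libraries of different lines did not deviate together (r from -0.129 to 0.160, over 0.1 in 2 of 18 pairs), so the labels share only a number. The fit with the replicate block changed no count of calls, with 12 and 14 clustered genes called in TIMP1 KO 1 and TIMP1 KO 2 against WT. Genes with few reads per library are limited by depth.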
